A study of Mus musculus with 3 samples.

Results

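PYHIN genes typically encode proteins that join a pyrin domain, a protein interaction module, to 1 or more HIN domains, which bind DNA. AIM2, the best known of them, binds double-stranded DNA in the cytosol and assembles an inflammasome through the adaptor ASC, while other members act in the nucleus or feed into the STING pathway to type I interferon. Interferon induces many of these genes in macrophages, and in mice the family has expanded into a cluster of close copies, hence the need to set one quantification against another. The members described are the 10 genes Aim2, Mndal, Ifi203, Ifi204, Ifi205, Ifi207, Ifi208, Ifi209, Ifi211 and Ifi213, out of 55536 annotated genes, 22028 of them protein coding. They were found by gene symbol in the transcript tables and by gene identifier in the gene tables, and they had been selected on their RNA levels (TPM) in these same libraries. Those levels are therefore given as a description, without a test.

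The samples were 3 libraries of polyadenylated RNA from bone-marrow-derived macrophages of the inbred mouse strain C57BL/6J, numbered replicates 1, 2 and 3 in the labels. All 3 had the same exposure, which was 100 ng/ml lipid A for 12 hours, 12 hours after washout, then 100 ng/ml lipid A for another 180 minutes. Lipid A is the part of bacterial lipopolysaccharide that TLR4 recognises; another label field calls the agent lipoprotein A, of type protein, and this conflict was left as it stands. All 3 carry the same donor record, sex and age were not collected, and unexposed cells were not analysed here, so levels cannot be read as a response to the exposure and a p-value covers only the variation among these samples, which could be technical. Replicate 1 held 23418690 expected counts, against 36863611 in replicate 2 and 37728915 in replicate 3. All 8 macrophage markers were at 1 TPM (a level per transcript length, scaled to the same total in each library) or more in every replicate, with summed levels between 15964.8 and 17945.2 TPM. Of 6 neutrophil markers only S100a8 and S100a9 passed that level in every replicate; the list summed to 97.5 TPM in replicate 2 and 11.2 and 10.6 TPM in replicates 1 and 3, and its defining genes Ly6g, Mpo, Elane and Cxcr2 stayed below 1 TPM. No marker of dendritic cells, B cells, T and NK cells, mast cells, fibroblasts or erythroid cells (18 genes) reached 1 TPM in all replicates. The 10 members lay between positions 173350879 and 174031810 of chromosome 1 (GRCm38), a span of 680.9 kb, with Aim2, Ifi208 and Ifi209 on the plus strand and the other 7 on the minus strand.

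Promoters were available from RefSeq (GRCm38.p6) for 9 of the 10 members, all but Ifi204, as the 250 bases before and 50 after a gene start. The sequences are shown because most members share an element there. Each line is a stretch of 60 bases, 5′ to 3′ on the gene's own strand. Capitals mark a match to GAAA, any 2 bases and GAAA again, the core letters of the interferon-stimulated response element (ISRE), or, for Ifi209, the stretch closest to GAAATCGAAA.
Mndal (chr1:173880194-173880253, minus strand): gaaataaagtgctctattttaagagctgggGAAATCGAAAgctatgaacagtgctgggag
Ifi203 (chr1:173942498-173942557, minus strand): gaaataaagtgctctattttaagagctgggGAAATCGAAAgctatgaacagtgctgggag
Ifi207 (chr1:173741821-173741880, minus strand): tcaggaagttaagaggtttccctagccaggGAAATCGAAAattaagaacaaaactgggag
Ifi208 (chr1:173673577-173673636, plus strand): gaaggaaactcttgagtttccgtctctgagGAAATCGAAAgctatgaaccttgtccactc
Ifi213 (chr1:173599316-173599375, minus strand): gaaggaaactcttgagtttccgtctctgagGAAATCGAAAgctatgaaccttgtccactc
Ifi205 (chr1:174031860-174031919, minus strand): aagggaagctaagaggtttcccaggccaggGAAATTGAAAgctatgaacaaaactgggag
Ifi211 (chr1:173913054-173913113, minus strand): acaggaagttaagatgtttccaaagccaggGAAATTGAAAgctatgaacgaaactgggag
Ifi209 (chr1:173630750-173630809, plus strand): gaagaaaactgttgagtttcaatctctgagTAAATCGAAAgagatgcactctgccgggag

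This core was searched on both strands and found in 7 of the 9 members with a promoter, namely Mndal, Ifi203, Ifi205, Ifi207, Ifi208, Ifi211 and Ifi213, and in 1131 of 32851 promoters of all genes, or 3.44%. By gene, 3.99% of 27025 held it. GAAATCGAAA, the form most frequent in the members and picked after the sequences had been seen, were in 5 members (Mndal, Ifi203, Ifi207, Ifi208 and Ifi213), in the neighbouring family genes Ifi206 and Ifi214, and in 16 of the 27025 genes in all, or 0.0592%. Ifi205 and Ifi211 carried GAAATTGAAA. In Ifi209 the stretch differed from GAAATCGAAA by G1T, counted from 1 at its 5′ end. The Aim2 promoter had no such core. In the windows shown, the element's first base lay 35 to 73 bases before the start in Ifi203, Mndal, Ifi211, Ifi207, Ifi208 and Ifi213. In Ifi205 it lay 134 bases before. Mndal and Ifi203 have 2 RefSeq starts each. The other Ifi203 window had no such core, and the other Mndal window had it on the opposite strand only. Mndal-201, with 75.7% of the Mndal counts, starts at position 173942491, beside the Ifi203 window shown and far from the Mndal one. The windows shown for Mndal and Ifi203 were identical in all 60 bases, as were those of Ifi208 and Ifi213, so matches in these copies are not separate instances. TTCNNNGAA, the STAT site, was in 0 of the 9, in 8.30% of all promoters and in 9.55% of genes. GAGGAAG, an ETS and PU.1 type site, was in Aim2 alone, in 13.6% of all promoters and in 15.4% of genes. A match or its absence describes only these letters in these windows.

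The coding sequences show how the copies are related. The first 90 coding bases are given for the 3 genes with the highest levels in these cells, Ifi204, Ifi205 and Ifi211 (GRCm38, minus strand, spliced order 5′ to 3′), from the GENCODE M21 transcripts. Capitals mark the 12 bases at which Ifi205 differs from Ifi211.
Ifi204 (chr1:173761774-173761863): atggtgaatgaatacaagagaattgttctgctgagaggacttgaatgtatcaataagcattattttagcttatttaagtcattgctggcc
Ifi211 (chr1:173907772-173907861): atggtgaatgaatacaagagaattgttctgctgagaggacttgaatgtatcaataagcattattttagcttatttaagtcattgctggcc
Ifi205 (chr1:174028373-174028462): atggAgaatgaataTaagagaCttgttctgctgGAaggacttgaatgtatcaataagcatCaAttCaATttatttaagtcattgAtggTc

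At the other end the partners change. The last 90 coding bases before the stop codon, which span an intron in the genome, were identical in Ifi205 and Ifi211.
Ifi205 (chr1:174012247-174015006): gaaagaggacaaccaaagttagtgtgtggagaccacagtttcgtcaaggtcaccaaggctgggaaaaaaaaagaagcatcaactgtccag
Ifi211 (chr1:173896602-173899391): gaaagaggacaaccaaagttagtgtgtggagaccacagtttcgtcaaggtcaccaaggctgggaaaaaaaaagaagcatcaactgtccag

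Over longer stretches, Ifi211 matched Ifi204 at 99.6% of the first 240 coding bases and Ifi205 at 99.7% of the last 300, but Ifi204 at only 54.7% of the last 300. Its start thus resembled that of one gene and its end that of another. Mndal and Ifi203 matched at 96.3% of their first 240 bases and at 51.7% of their last 300. Ifi208 and Ifi213 matched at 98.8% and 53.3%. The Ifi213 sequence used, that of Ifi213-201, had only 405 coding bases, so its first 240 and last 300 overlap. Its last 300 were set against the end of the 1764-base Ifi208 sequence, so the 53.3% does not show that corresponding regions differ. Ifi204 and Ifi207 were close at both ends, with 91.7% and 92.7%. Over all 45 pairs of members the medians were 66.7% and 55.7%. Aim2 matched no member at more than 58.3% of the first 240 bases, the lowest closest match of the 10 there. Over the last 300 bases its closest match, 59.3%, was above those of Ifi208 (54.0%) and Ifi213 (56.3%). These values lie near the lowest over all pairs at that end, 51.0%, and that of Ifi213 rests on its short sequence. They therefore do not rank how closely the genes are related.

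The same closeness bears on how short reads can be assigned. It was measured here on 31-base sequences of annotated transcripts, without regard to the length of the reads. Of the 31-base sequences in its transcripts, Ifi211 shared 78.9% with transcripts of other genes, 49.5% with Ifi205 and 38.6% with Ifi204. Ifi209 shared 47.2%, nearly all of it (46.8%) with its neighbour Ifi214 and 0.0850% with other members. Ifi204 and Ifi208 each shared 34.0%, Mndal 28.7%, Ifi213 26.5%, Ifi205 22.1%, Ifi203 21.6% and Ifi207 14.8%. These shares pool all annotated transcripts of a gene, including long ones at low levels. Taken alone, Ifi205-201, which held 94.5% of the Ifi205 TPM, shared 56.5%, and Ifi205-202, annotated as a retained intron, 1.79%. Among other coding transcripts, Ifi204-201 shared 46.0%, Mndal-201 42.5%, Ifi208-201 42.1%, Ifi213-201 31.1%, Ifi203-202 20.7% and Ifi207-201 14.9%. Aim2 shared 4.89% and none with another member. Levels of all members but Aim2 are uncertain to the extent that the counting divided such reads among copies. The posterior SD that the authors' gene tables give for a count was at most 0.347% of a member's count, in Ifi211.

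Levels are from the authors' gene tables made by alignment, unless their second tables, made from the FASTQ files, are named. All 10 members were at 1 TPM or more in all 3 replicates, where 18.9% of all annotated genes and 44.3% of protein-coding genes were. Their median level was 277 TPM, against 0.342 TPM over all protein-coding genes and 18.0 TPM over the 9749 protein-coding genes at 1 TPM or more. Together they summed to 5203, 4490 and 4109 TPM in replicates 1, 2 and 3, a mean of 4601 ± 555 TPM (SD, n = 3). In counts this came to 148683, 208855 and 193404 expected counts. In bulk RNA, fewer cells of a type and less RNA per cell cannot be told apart. Ifi204, Ifi205 and Ifi211 supplied 64.6% ± 1.81 of the summed TPM.

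Aim2, the DNA receptor of the inflammasome, was second lowest of the 10, at 97.0, 106 and 75.0 TPM in replicates 1, 2 and 3, or 92.7 ± 16.1 TPM (SD, n = 3). Its expected counts were 1316, 2349 and 1562, the fewest of any member. Its replicates overlapped those of Ifi208 below it and did not reach those of Ifi213 above it.

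Ifi204, which encodes a DNA sensor of the STING pathway often likened to human IFI16, was at 901, 923 and 835 TPM, or 886 ± 45.8. Ifi205, whose protein controls transcription of the gene for ASC in mouse macrophages, was at 1284, 934 and 872 TPM, or 1030 ± 222. Ifi211, listed in RefSeq under the synonym Mnda, was at 1068, 1103 and 980 TPM, or 1050 ± 63.3. The 3 genes ranked 126, 103 and 101 among protein-coding genes. Ifi204 was below Ifi205 and below Ifi211 within each of the 3 replicates, in both quantifications, while Ifi205 and Ifi211 changed places between replicates. Of the 3, Ifi205 had the largest SD in these alignment-made tables, with its replicate 1 above the other two, and the smallest in the FASTQ-made tables, at 862 ± 30.6 TPM.

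Mndal, an interferon-inducible nuclear protein gene, was at 664, 463 and 461 TPM, or 529 ± 117. It was below the top 3 and above Ifi209 in every replicate, with no overlap on either side. Ifi209, synonym Pyhin1, was at 401, 276 and 267 TPM, or 315 ± 74.6. Ifi207, whose protein acts on retroviral replication through STING in mice, was at 235, 248 and 233 TPM, or 239 ± 7.85. Its coefficient of variation over replicates was the lowest of the 10 in the alignment tables, at 3.29%, and the highest in the FASTQ tables, at 19.5%. Ifi203, which starts beside Mndal, was at 253, 188 and 156 TPM, or 199 ± 49.3. Its range overlapped those of Ifi207 above and Ifi213 below.

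Ifi213 and Ifi208 are listed in RefSeq under the pyrin-domain synonyms Pydc4 and Pydc3. Whether either encodes a HIN domain was not examined. Ifi213 was at 203, 179 and 149 TPM, or 177 ± 27.4, and Ifi208 was lowest at 96.7, 71.4 and 80.9 TPM, or 83.0 ± 12.8. From the highest to the lowest member the mean levels thus ran Ifi211, Ifi205, Ifi204, Mndal, Ifi209, Ifi207, Ifi203, Ifi213, Aim2, Ifi208. Among the 9 neighbouring pairs in that order, 4 did not overlap between replicates.

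**Figure D1:**
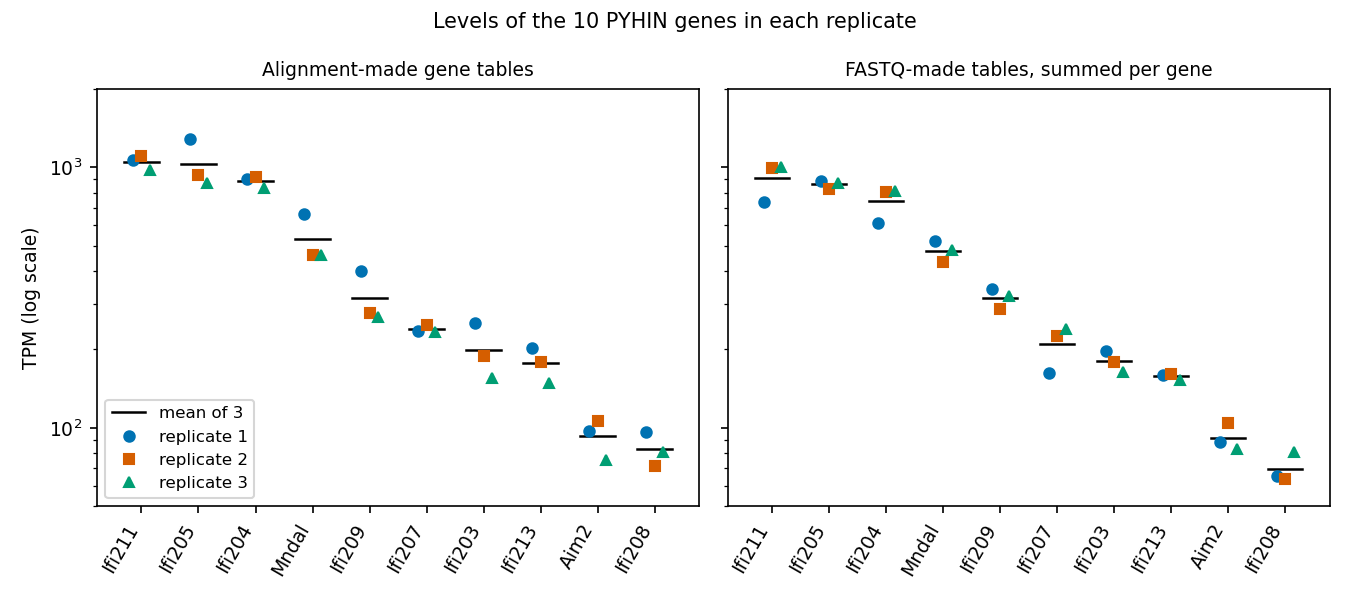
Level of each of the 10 PYHIN genes in TPM (log axis) in replicates 1, 2 and 3, from the alignment-made gene tables on the left and the FASTQ-made tables summed per gene on the right; bars are means of 3. The order of the means is the same in both panels, and in the left panel the replicate 1 points of Mndal, Ifi205, Ifi209 and Ifi203 lie above the other replicates.

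The other annotated genes inside the cluster, 11 in number, show that not every gene of it was at a high level. Ifi206, another family gene, was at 153, 135 and 138 TPM, above Aim2 and Ifi208. Ifi214 was at 13.6, 11.8 and 12.4 TPM and the pseudogene Ifi203-ps at 10.6, 4.96 and 3.66 TPM. Ifi202b, whose level is known to differ between mouse strains, had 1 expected count in replicate 1 and 0 in the other replicates, which allows up to 3 counts or 0.0815 and 0.0796 CPM (counts scaled to the library total) there. The pseudogenes Gm18752 and Gm18445 had means of 0.933 and 0.880 TPM, Gm7871 0.0367 TPM, and the pseudogenes Gm7897 and Gm38050 were listed at 0 in every replicate of both quantifications. The microRNA genes Gm44481 and Gm44339 were listed at 0 in the alignment tables, where 0 counts allow up to 3 counts or 0.128, 0.0815 and 0.0796 CPM. In the FASTQ tables Gm44481 was at 4.02, 5.43 and 10.004 TPM and Gm44339 at 30.1, 24.4 and 3.33 TPM, from 2.24, 2.37 and 6.01 and from 16.8, 10.7 and 2.00 estimated counts. Outside the cluster, the nearest 3 protein-coding genes on the side of Aim2 (Mptx2, Ackr1 and Cadm3) and on the side of Ifi205 (Olfr433, Olfr432 and Olfr430) had mean levels between 0 and 1.65 TPM. Cadm3 overlaps Aim2 on the opposite strand, at 0.0633 TPM. Mndal spans Ifi211 and Ifi203 on its own strand, and the first exon of its transcript Mndal-201 shares 37 bases with exons of Ifi203.

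**Figure D2:**
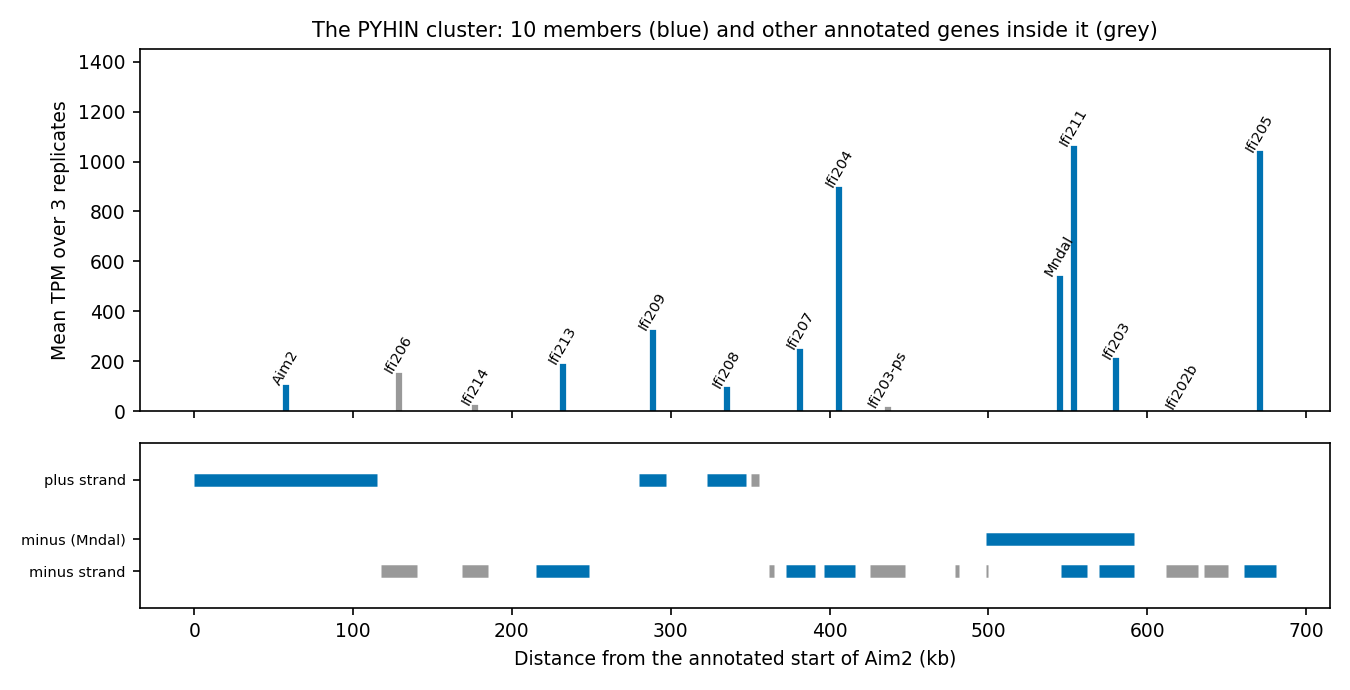
Mean TPM over 3 replicates of the members (blue) and other annotated genes (grey) along the cluster, with gene extents by strand below, in kb from the annotated start of Aim2; Mndal is drawn on its own row because it spans Ifi211 and Ifi203. The 3 highest members, Ifi204, Ifi211 and Ifi205, are not adjacent, and genes at low levels such as Ifi202b lie between members.

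Because members resemble each other, each gene was also read from a second quantification, made from the FASTQ files, with TPM and estimated counts summed per gene. Across 10705 genes with a mean of at least 1 TPM in both, the median log2 ratio of the FASTQ value over the alignment value, computed on log2(TPM + 0.1), was -0.47, -0.18 and -0.02 in replicates 1, 2 and 3. Taken relative to that shift, the members differed little, from -0.04 ± 0.04 for Ifi204 to 0.25 ± 0.03 for Ifi209 (SD over 3 replicates). None of the 10 was lower by 1.5-fold or more in the FASTQ tables in all replicates and none was higher, where 1.08% of genes were lower and 1.15% higher. Ifi209 had the largest relative difference and Aim2 the next, at 0.21 ± 0.10; Ifi203 was at 0.11 ± 0.01, Mndal at 0.10 ± 0.02, Ifi213 at 0.07 ± 0.05, Ifi207 at 0.02 ± 0.07, Ifi211 at 0.00 ± 0.07, Ifi205 at -0.01 ± 0.04 and Ifi208 at -0.03 ± 0.06. The most shared gene, Ifi211, was within its spread of the median gene, and Aim2, the least shared, was not. Both quantifications used the same reads, so they may divide reads among copies in the same way. Closeness between them does not show that the division is right. The order of the 10 mean levels was the same in both quantifications, with 7 of 9 neighbouring pairs free of overlap in the FASTQ tables. The sum of the members was 3773, 4080 and 4202 TPM there, or 4018 ± 221.

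**Figure D3:**
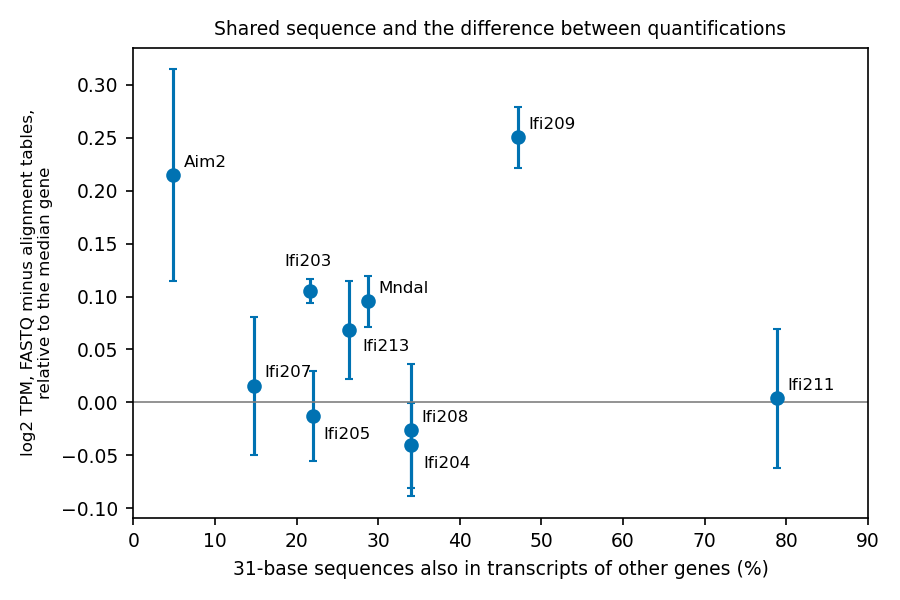
Difference in log2 TPM between the FASTQ-made and alignment-made tables for each member, relative to the median gene (mean and SD over 3 replicates, y axis), against the percent of its 31-base sequences found in transcripts of other genes (x axis). The percent pools all annotated transcripts of a gene. Ifi211, with 78.9% shared, lies near 0, while Ifi209 (47.2% shared) and Aim2 (4.89% shared) lie highest, at 0.25 and 0.21.

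Transcripts showed larger differences than genes. The highest transcript by TPM was the same in both quantifications in all replicates for 8 of the 9 members with several transcripts, where 76.2% of genes had that property, close to the members' share. The exception was Ifi203, whose protein-coding transcripts Ifi203-202 and Ifi203-205 took the lead in turn in different replicates. For Aim2 the leading entry was Aim2-206, a processed transcript of 383 bases without a coding sequence, at 41.5, 45.4 and 34.6 TPM. Since TPM is per length, this short entry held 43.9% ± 1.94 of the Aim2 TPM but 6.52% ± 0.339 of its expected counts. The longer coding transcript Aim2-204, of 2079 bases, held 30.5% ± 3.44 of the TPM and 66.0% ± 5.48 of the counts. All coding transcripts of Aim2 together made up 49.9% ± 1.25 of TPM and 92.6% ± 0.286 of counts, while the FASTQ quantification gave 57.1% ± 1.61 and 91.7% ± 0.281. The level of Aim2 in TPM therefore depends on how many reads are given to a short noncoding entry.

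For Ifi209 the quantifications divided the gene differently. Ifi209-202, a transcript annotated to undergo nonsense-mediated decay, was at 18.8, 10.4 and 6.38 TPM in the alignment tables and at 145, 93.9 and 115 TPM in the FASTQ tables. Its share of the gene's TPM was 3.62% ± 1.17 in the former and 37.1% ± 4.89 in the latter, with no overlap between them. The coding transcript Ifi209-201 was at 382, 265 and 261 TPM in the alignment tables and 197, 191 and 205 TPM in the FASTQ tables. Both transcripts share a similar part of their 31-base sequences with Ifi214, 48.2% for Ifi209-201 and 49.8% for Ifi209-202. Sequences found in no other annotated transcript made up 31.8% of those of Ifi209-201 and 7.67% of those of Ifi209-202. The part of shared sequence in the split was not tested.

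Ifi203-203, a coding transcript, went the other way, from 40.0, 24.4 and 21.8 TPM in the alignment tables to 2.00, 1.14 and 1.28 TPM in the FASTQ tables. Aim2-203, a coding transcript of 326 bases, was listed at 0 in all 3 alignment tables and at 8.10, 6.63 and 7.53 TPM in the FASTQ tables. Mndal, with 10 transcripts, had 67.4% ± 3.80 of its TPM and 91.8% ± 0.832 of its counts in coding ones, and its processed transcript Mndal-209, of 367 bases, was at 145, 95.7 and 140 TPM. For Ifi213 the leading transcript was the coding Ifi213-205 of 643 bases, with 46.2% ± 2.46 of the TPM but 11.6% ± 0.642 of the expected counts, while Ifi213-201, of 2680 bases, held 29.0% ± 2.52 and 47.5% ± 5.26. Ifi204, Ifi205 and Ifi208 each had more than 90% of their TPM in coding transcripts in both quantifications, with means from 92.4% to 98.7%, and Ifi211 has a single annotated transcript. Ifi207 has 2, both coding, and Ifi207-201 took 99.8% ± 0.190 of its TPM.

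**Figure D4:**
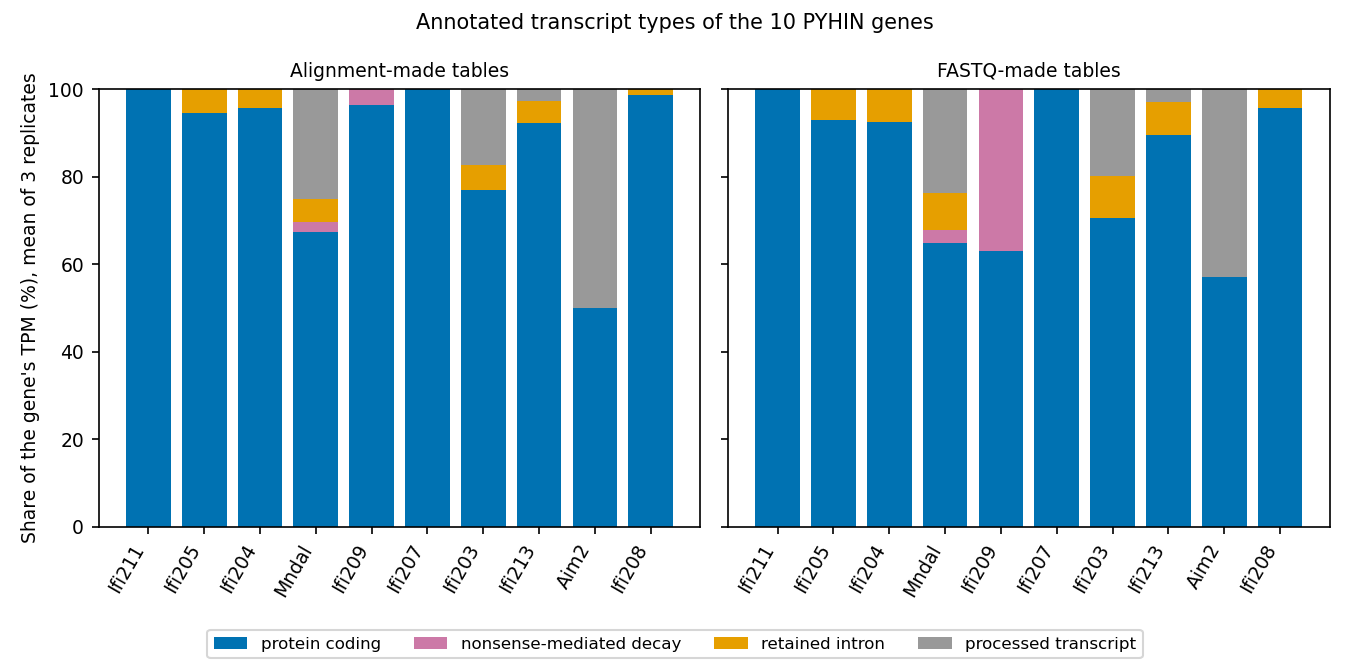
Share of each member's TPM by annotated transcript type, mean of 3 replicates, in the alignment-made tables on the left and the FASTQ-made tables on the right. Aim2 has 49.9% and 57.1% of its TPM in protein-coding transcripts, and the nonsense-mediated decay share of Ifi209 is 3.62% on the left and 37.1% on the right.

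The replicates did not move the members as a block. In the alignment tables Mndal, Ifi203, Ifi205, Ifi208, Ifi209 and Ifi213 were highest in replicate 1, so 6 of 10, where 33.1% of protein-coding genes at a mean of 1 TPM or more were. In the FASTQ tables Mndal, Ifi203, Ifi205 and Ifi209 were, so 4 of 10, where 9.56% of such genes were. On log2 TPM, replicate 1 minus the mean of replicates 2 and 3 was 0.56 for Ifi209, 0.56 for Ifi203, 0.52 for Mndal and 0.51 for Ifi205 in the alignment tables, and 0.18, 0.21, 0.20 and 0.07 in the FASTQ tables. Ifi204, Ifi211 and Ifi207 were at 0.04, 0.04 and -0.03 in the alignment tables and -0.40, -0.44 and -0.51 in the FASTQ tables. Those 3 genes were thus the lowest of the 10 by this measure in both quantifications, whatever the shift of all genes. Ifi208, Ifi213 and Aim2 lay between, at 0.35, 0.32 and 0.12 and then -0.13, 0.03 and -0.08.

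Ratios within a sample, which do not depend on the scaling of a library, restate this split from the same values. Ifi204 over Ifi211 was steady, with a log2 ratio of -0.25, -0.26 and -0.23 in the alignment tables and -0.26, -0.30 and -0.30 in the FASTQ tables. Ifi204 over Ifi205 was -0.51, -0.02 and -0.06, and -0.54, -0.04 and -0.10 in the FASTQ tables. Ifi207 over Ifi209 was -0.77, -0.16 and -0.20, and -1.07, -0.33 and -0.42. Replicate 1 therefore had less Ifi204 relative to Ifi205, and less Ifi207 relative to Ifi209, than either other replicate had. These pairs were picked after their values were seen and get no test. Replicate 1 was also the library with the fewest counts, and Ifnb1, the gene for interferon beta, chosen after its values were seen, had 42.9 TPM there against 14.6 in replicate 2 and 11.0 in replicate 3. The part of either in the pattern was not tested.

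**Figure D5:**
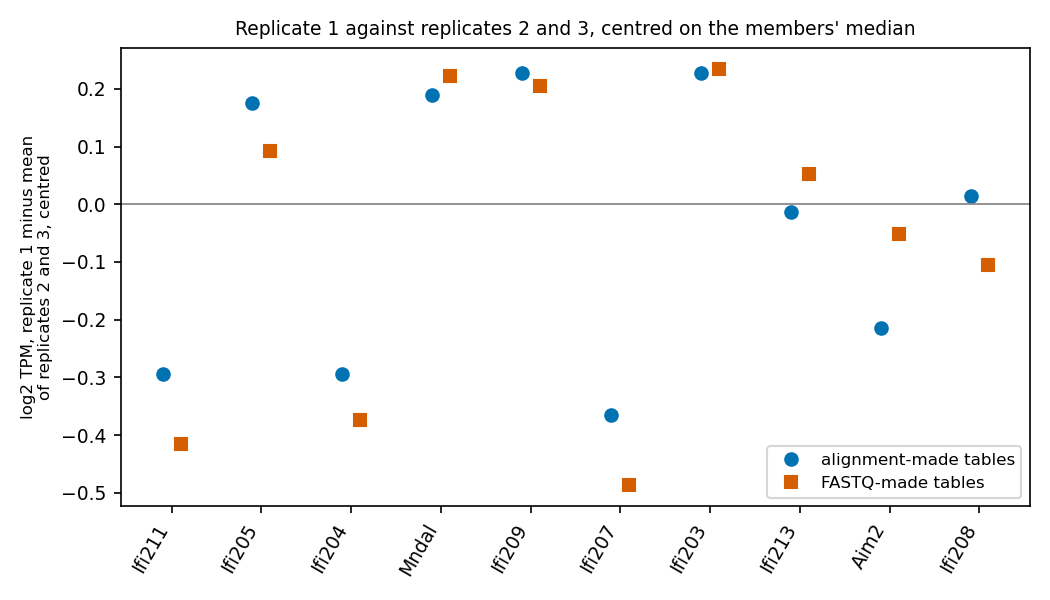
Log2 TPM of replicate 1 minus the mean of replicates 2 and 3 for each member, centred on the median of the 10 members, in the alignment-made tables (circles) and FASTQ-made tables (squares). Ifi204, Ifi207 and Ifi211 lie lowest, and Mndal, Ifi203, Ifi209 and Ifi205 lie above 0, in both quantifications.

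Whether any member varied more between replicates than genes of its abundance was tested with edgeR's quasi-likelihood dispersion over 11992 genes, one-sided with Benjamini-Hochberg adjustment. No gene passed an adjusted p of 0.05, 0% of those tested, and 627 genes but no member had an unadjusted p below 0.05. Those 627 were near the share of 11992 genes that this threshold alone would give. With 10 members, the lack of any below it says little. Among members the smallest edgeR p was that of Mndal, at 0.0915 unadjusted and 0.950 adjusted. Its biological coefficient of variation was 0.193, above that of 60.2% of genes. At the other end, Ifi207 had 0.132, above that of 1.10% of genes, Ifi204 0.135 (5.09%) and Ifi211 0.136 (7.88%). A p that misses the threshold does not show that the replicates were alike.

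The genes that work with the members, from lists drawn up with earlier results of these data known, were largely present. Over all protein-coding genes, 44.3% were at 1 TPM or more in all replicates. Of the AIM2 inflammasome and its output, 14 of 14 genes found were at 1 TPM or more in all replicates, with a median of 188 TPM. The highest were Gbp2 at 980 ± 22.1 TPM, Gbp5 at 589 ± 71.3, both guanylate-binding proteins that open bacteria to expose their DNA, Il1b at 494 ± 91.1 and the membrane rupture gene Ninj1 at 381 ± 63.9. Pycard, which encodes ASC and was named for that role with its values known, was at 82.4, 93.5 and 82.2 TPM, and Casp1, the inflammasome caspase, named likewise, at 339, 331 and 237 TPM. Of 10 genes of cytosolic DNA sensing and STING all 10 passed, led by the nucleotide hydrolase Samhd1 at 1057 ± 31.1 TPM, the DNase Trex1 at 593 ± 88.2, the nucleic acid sensor Zbp1 at 531 ± 35.6 and the kinase Ikbke at 321 ± 78.4. Of 11 genes of type I interferon signalling all 11 passed, and the highest included the interferon regulatory factors Irf7 at 2116 ± 131 TPM and Irf1 at 323 ± 26.4, and Stat2 at 311 ± 32.7. Their list medians were 85.1 and 100 TPM, beside 277 TPM for the members.

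The mean profile of the 10 members over replicates 1, 2 and 3, each gene centred on its own log2 mean, was 0.20, -0.03 and -0.17. The protein-coding genes of at least 10 TPM that ran closest to it were Uba7, Exoc5, Cdk7, Pnrc2 and Actb, at root-mean-square distances from 0.0037 to 0.0081 log2 units over 3 samples. Of 6448 candidates 219 lay within 0.05, closer than any single member did (0.051 to 0.17).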

How the data were processed

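Polyadenylated RNA was measured in 3 samples of 1 group. Per the labels, 1 µg RNA went into each library (size range 250 to 400), and the deposited file lists name mm10 and GENCODE M21. Neither the programs nor the strand setting is given in the sources used here. Per the file headers, the authors deposited alignment-made tables with expected counts and TPM, with a posterior SD of the count, and FASTQ-made transcript tables with estimated counts and TPM. Of 81881 entries 55536 matched M21 genes. Entries that name no mouse gene took 0.178%, 0.107% and 0.115% of counts and were left out. Where a gene has 0 counts, up to 3 are allowed, which is 0.128, 0.0815 and 0.0796 CPM in replicates 1, 2 and 3 (counting error only).

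FASTQ values were summed per gene here. The posterior SD was at most 0.347% of a member's count. Expected counts were rounded, filtered by filterByExpr and scaled by TMM for an intercept-only fit in edgeR 4.0.16 (R 4.3.3), tested on simulated data. DESeq2 1.42.0 gave size factors as an alternative. Sequence identity came from global alignment of coding sequence in Biopython 1.88. Other alternatives were the FASTQ tables, CPM, thresholds of 1 or 5 TPM, no filter on low counts and leaving out each replicate. Members, lists and tests were chosen with earlier results of these data known. The text names the members, at most the 4 highest of each list and any list gene under 1 TPM, every gene inside the cluster, 3 protein-coding genes on each side, and the 5 genes of closest profile. The values of 1 listed gene are not reported here. Irgb10, Pyhin1, Mnda, Pydc3 and Pydc4 had no entry under those symbols.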

Additional observations from a re-analysis of the deposited data

How the results depend on the processing

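The count of members at 1 TPM or more (10), of members past 1.5-fold between quantifications (0), of members with 1 leading transcript in both (8) and of members with excess variance (0) was the same under every alternative run for each. In most settings no gene at all passed the test of excess variance, so the 0 there does not show that the members were steady. Without each replicate in turn the summed TPM ran from 4299.7 to 4846.39 and the count of neighbouring pairs without overlap from 5 to 6, against 4 with all 3 replicates. Leaving out a replicate can only narrow the range of a member, so the higher count of pairs is largely built in. In the FASTQ tables the sum was 4018.35 TPM and 7 neighbouring pairs did not overlap. Of the members' mean levels, 6 moved by less than 1 SD in those tables, and Ifi204, Ifi207, Ifi208 and Ifi211 were lower by more than that. This mark depends on each gene's own SD. Ifi205 went from 1030 to 862 TPM and stayed within its SD of 222 TPM. Relative to the shift of all genes between quantifications, the 4 named genes differed by only -0.04 to 0.02 in log2. Genes with excess variance (edgeR) numbered 143 of 20285, none a member, when all genes with at least 1 count were tested; the cause was not tested. They numbered 0 with DESeq2 size factors, in the FASTQ tables and without each replicate, with 630, 702 and 667 to 670 genes at an unadjusted p below 0.05. By that unadjusted edgeR p, 1 member passed without replicate 1 and 1 without replicate 2, and none without replicate 3. By CPM, which is not per length, 8 of 10 members changed rank, and Ifi204 came first. Alternatives for the relative shift between quantifications, the highest replicate and the difference between Ifi205 and Ifi204 (0.47 in both quantifications) were chosen after seeing the data, and 6 members were highest in replicate 1 by CPM as by TPM. Depth limits what can be said of genes near 0, such as Ifi202b. No paired analysis was possible because there is 1 group.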
